A study of Pimephales promelas with 20 samples.

Results

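Liver RNA of female fathead minnows (Pimephales promelas) exposed to 1006 ng/L phenanthrene for 48 h was compared with liver RNA of fish held at 0 ng/L. The comparison took the 5 arrays whose dose label was 1006 ng/L and the 5 arrays at 0 ng/L, with agent given as none, which makes 10 of the 20 arrays of the study. The other 10 arrays, 5 at 29 ng/L and 5 at 287 ng/L, entered the normalisation and the estimate of the spread and are quoted where the highest dose is set against them. All groups were female liver after the same exposure time, and the labels give no age, strain or carrier solvent. Replicates are named by the number in the sample title, 3 to 7 for the controls and 41, 42, 44, 45 and 46 for the highest dose. The labels do not say that each array came from its own fish, so each p-value reflects array-to-array spread, part of which may be technical.

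Phenanthrene is a polycyclic aromatic hydrocarbon found in petroleum and in soot, and the fathead minnow is a small freshwater fish used widely in toxicity testing. Fish liver takes up such compounds and oxidises them with cytochrome P450 enzymes, then conjugates the products for excretion in bile. Many larger aromatic hydrocarbons switch on the P450 gene cyp1a through the aryl hydrocarbon receptor, whereas phenanthrene is known as a weak ligand of that receptor. Female fish liver also makes egg yolk proteins under the control of oestrogen. The study asked how the liver's gene expression follows the phenanthrene dose. The probes of this array carry identifiers and sequence assembly names but no gene names in the tables used here, and none of these names was found in the RefSeq gene table of 64593 genes. The label of liver could therefore not be set against liver marker genes, no pathway list was tested, and the probes are described by identifier. In whole tissue, fewer cells of a type and less RNA per cell cannot be told apart.

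Each array held 15208 probes for fish sequences. A probe was tested when, in either group, the scanner software scored 4 arrays or more as well above background, which kept 9978 probes (65.6%). Between 8722 and 11796 probes were well above background on the control arrays and between 9282 and 11985 on the arrays at 1006 ng/L. The means were 10132 ± 1349 and 10689 ± 1186 (SD, n = 5 each), a difference smaller than the spread (exact two-sided permutation test, p = 0.516, where the smallest possible p is 0.00794). On array 42 of the highest dose, 8 of 96 blocks of the slide surface were dim, with a block mean down to −2.10 on the log2 scale. These blocks held 775 tested probes, of which 0 were among the called probes described next. Replicate 36 at 287 ng/L had 11 dim blocks, down to −3.07, which held 1079 tested probes, 1 of them called. Over all tested probes 0.291% were called, so counts this small do not show whether the dim blocks affected the calls. Setting the dim regions to missing gave 31 called probes instead of 29. The number of arrays limits the precision of every value.

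After exposure to 1006 ng/L, 26 probes rose and 3 fell among the 9978 tested, at a Benjamini-Hochberg adjusted p under 0.05 in limma's moderated test. The 29 called probes are 0.291% of those tested, 0.261% for the rises and 0.0301% for the falls. Their changes ran from 2.19-fold to 17.2-fold with a median of 3.65-fold, or 1.13 to 4.11 on the log2 scale with a median of 1.87. The median size of change over all tested probes was 0.45. In each of the 29, every array of one group lay beyond every array of the other, as did 405 of all tested probes (4.06%), 243 of them higher (2.44%) and 162 lower (1.62%) at 1006 ng/L. Of the 29, 6 were not well above background on all 10 arrays, and each of these met the filter only through the group where its signal was higher. For these 6 the filter itself favoured a difference, so their adjusted p-values and lack of overlap are weaker evidence. Without moderation of the spread, the ordinary linear model called 32 probes, 26 of them shared.

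The count itself depended on single arrays. It fell to 3, 6 and 3 without control replicates 3, 4 and 7, and to 4, 6 and 16 without replicates 41, 44 and 46 of the highest dose. It rose to 62 and 74 without replicates 22 and 26 at 29 ng/L, which belong to neither group compared. The normalised values were kept in these fits, so that leaving out an array at 29 or 287 ng/L changed the estimate of the spread alone. Leaving out any other single array gave 23 to 35. Of the 29 probes, 3 passed in all 20 of these fits.

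**Figure D1:**
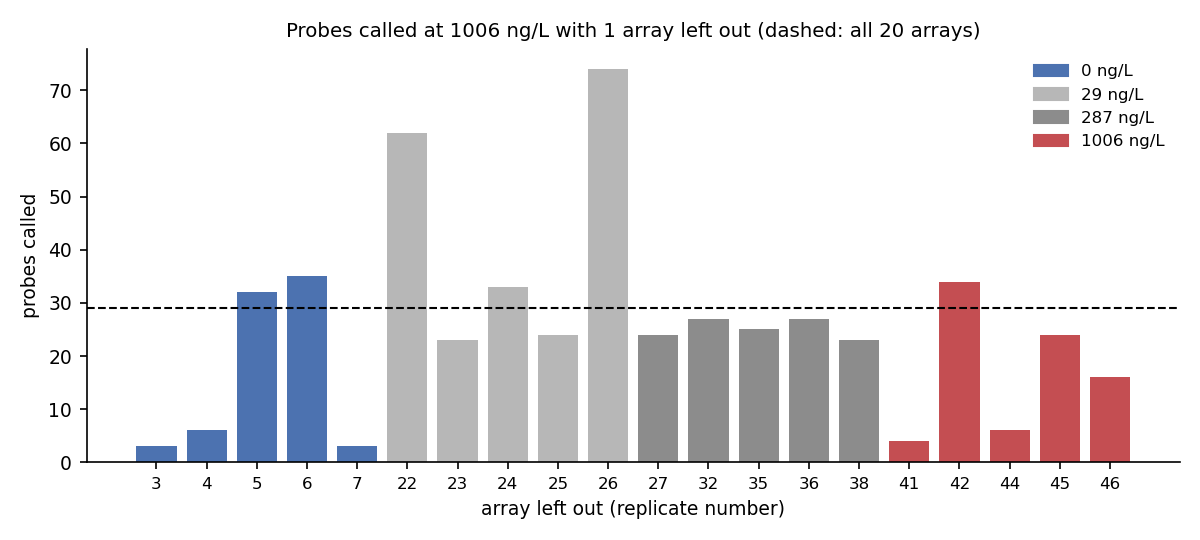
Number of probes called at 1006 ng/L against control (vertical axis) when 1 array is left out of the fit (horizontal axis, replicate number), coloured by the group of that array. The dashed line marks the 29 probes called with all 20 arrays, and the bars run from 3 to 74.

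The largest rise was at UF_Ppr_AF_112748, a probe for an assembled transcript with no gene name here. Its log2 normalised signal was 7.82, 7.13, 6.87, 7.56 and 6.47 on control replicates 3 to 7. On replicates 41, 42, 44, 45 and 46 at 1006 ng/L it was 11.63, 11.14, 11.27, 10.57 and 11.79. The groups lay far apart, with 2.75 between the highest control and the lowest exposed array, the widest gap among the called probes. The mean went from 7.17 ± 0.54 to 11.28 ± 0.47 (SD, n = 5 each), a rise of 4.11 (SE 0.46, 95% interval 3.14 to 5.08) or 17.2-fold, with a limma adjusted p of 0.000351. The probe was well above background on all 10 arrays. Within the 3 slides that held both groups the difference was 3.96, 4.20 and 4.23, where a rise was fixed in advance because the groups did not overlap. The probe passed the test in all 20 fits that left out 1 array.

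The other named rise, at UF_Ppr_AF_112570, was a dim probe. Its log2 signal was 4.03, 4.33, 1.41, 2.43 and 2.64 on control replicates 3 to 7 and 5.67, 6.62, 5.63, 5.87 and 6.0 on the arrays at 1006 ng/L. All exposed arrays were above all controls, and the controls were the more scattered group. Only control replicates 3 and 4 were well above background, against all 5 exposed arrays. The mean rose from 2.97 ± 1.20 to 5.96 ± 0.40 (SD, n = 5 each), by 2.99 (SE 0.55, 95% interval 1.83 to 4.15), or 7.96-fold, with a limma adjusted p of 0.0195. The probe met the filter through the exposed group alone. Because most control signals were near background, the size of this change is poorly fixed. With normexp background correction, which adds an offset of 50 and so shrinks the differences of dim probes, the rise was 0.78 and was no longer called (limma adjusted p = 0.0914).

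Of the 3 falls, the largest in the fit was at UF_Ppr_AF_106468. Its log2 signal was 7.98, 7.81, 7.16, 7.59 and 7.49 on control replicates 3 to 7, all well above background. At 1006 ng/L it was 2.90, 4.46, 2.76, 5.66 and 5.46 on replicates 41, 42, 44, 45 and 46, and replicates 41 and 44 were not well above background. All exposed arrays were lower than all controls, and the exposed arrays were spread widely. The mean fell from 7.60 ± 0.32 to 4.25 ± 1.37 (SD, n = 5 each), a log2 change of −3.36 (SE 0.60, 95% interval −4.61 to −2.11), with a limma adjusted p of 0.0147. The probe met the filter through the controls alone. Because 2 exposed arrays were not above background, the size of the fall is poorly fixed. With normexp correction the change was −1.28 (limma adjusted p = 0.0384).

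The second named fall, at UF_Ppr_AF_101157, went from 5.71, 5.31, 6.23, 4.40 and 5.54 on control replicates 3 to 7 to 3.44, 3.40, 3.10, 3.29 and 2.69 at 1006 ng/L. The exposed arrays sat close together below the lowest control. The mean went from 5.44 ± 0.67 to 3.18 ± 0.31 (SD, n = 5 each), a log2 change of −2.26 (SE 0.47, 95% interval −3.25 to −1.27) with a limma adjusted p of 0.0476. It was well above background on 4 control arrays and on 2 exposed arrays, so it met the filter through the controls alone. This call was the least stable of the named probes. Of the 20 fits that left out 1 array, it passed in 6. With normexp correction the change was −0.58 (limma adjusted p = 0.203).

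**Figure D2:**
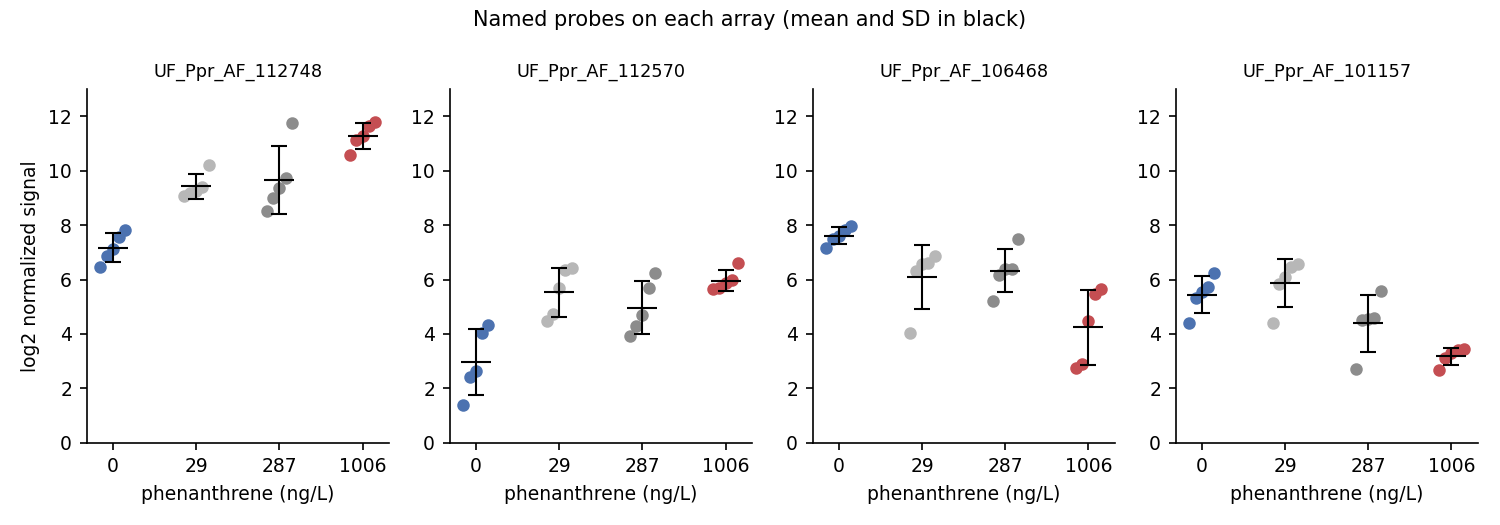
Log2 normalised signal (vertical axis) of the named probes on every array by phenanthrene concentration in ng/L (horizontal axis); each point is 1 array and the black marks are the mean and SD of 5 arrays. At 1006 ng/L all 5 arrays lie above all controls for UF_Ppr_AF_112748 and UF_Ppr_AF_112570 and below all controls for UF_Ppr_AF_106468 and UF_Ppr_AF_101157.

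The remaining fall was in a brighter probe whose groups were tight. Its control signals were 9.21, 9.60, 9.35, 9.27 and 9.66 and its signals at 1006 ng/L were 7.92, 8.18, 7.35, 7.61 and 7.88. All 10 arrays were well above background and the groups did not overlap. The mean went from 9.42 ± 0.20 to 7.79 ± 0.32 (SD, n = 5 each), a log2 change of −1.63 (SE 0.28) or a 3.10-fold lower signal, with a limma adjusted p of 0.0147.

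Most rises were in probes of middle to high signal. Of the 26, 22 were well above background on all 10 arrays, as were 7206 of the 9978 tested probes. Their control means ran from 6.11 to 12.57 and their means at 1006 ng/L from 7.99 to 14.57, and apart from the largest rise of 4.11 none of them rose by more than 2.31. The brightest went from 12.67, 13.60, 12.21, 12.08 and 12.30 in the controls to 15.07, 15.77, 13.75, 14.07 and 14.21 at 1006 ng/L. Its highest control and its lowest exposed array were close, and the rise of 2.0 (SE 0.35) was 4.01-fold, with a limma adjusted p of 0.0147. A probe that shared the second smallest adjusted p had 8.95, 8.44, 9.25, 9.16 and 8.76 in the controls and 10.61, 10.35, 10.95, 11.09 and 10.94 at 1006 ng/L. Each group spanned a narrow range, and the rise of 1.88 (SE 0.28) was 3.67-fold with a limma adjusted p of 0.00708. The smallest called rise, of 1.13 (SE 0.21) or 2.19-fold, was in a probe whose SD was 0.16 in the controls and 0.14 at 1006 ng/L (n = 5 each), the smallest control and exposed SDs among the called probes.

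The called probes were measured with less error than the rest, a property that the test itself favours. Their standard errors ran from 0.21 to 0.60 with a median of 0.32, against a median of 0.43 over all tested probes. Their mean signal over both groups had a median of 9.23, against 7.32 for all tested probes. The brightest 2495 probes held 15 of the 29 called probes, and the dimmest 2494 held 4, where the share called over all tested probes was 0.291%. The median standard error was 0.34 in the brightest set and 0.51 in the dimmest. Groups did not overlap in 7.54% of the brightest probes, 124 higher and 64 lower at 1006 ng/L, and in 1.68% of the dimmest, 17 higher and 25 lower. The share over all tested probes was 4.06%.

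**Figure D3:**
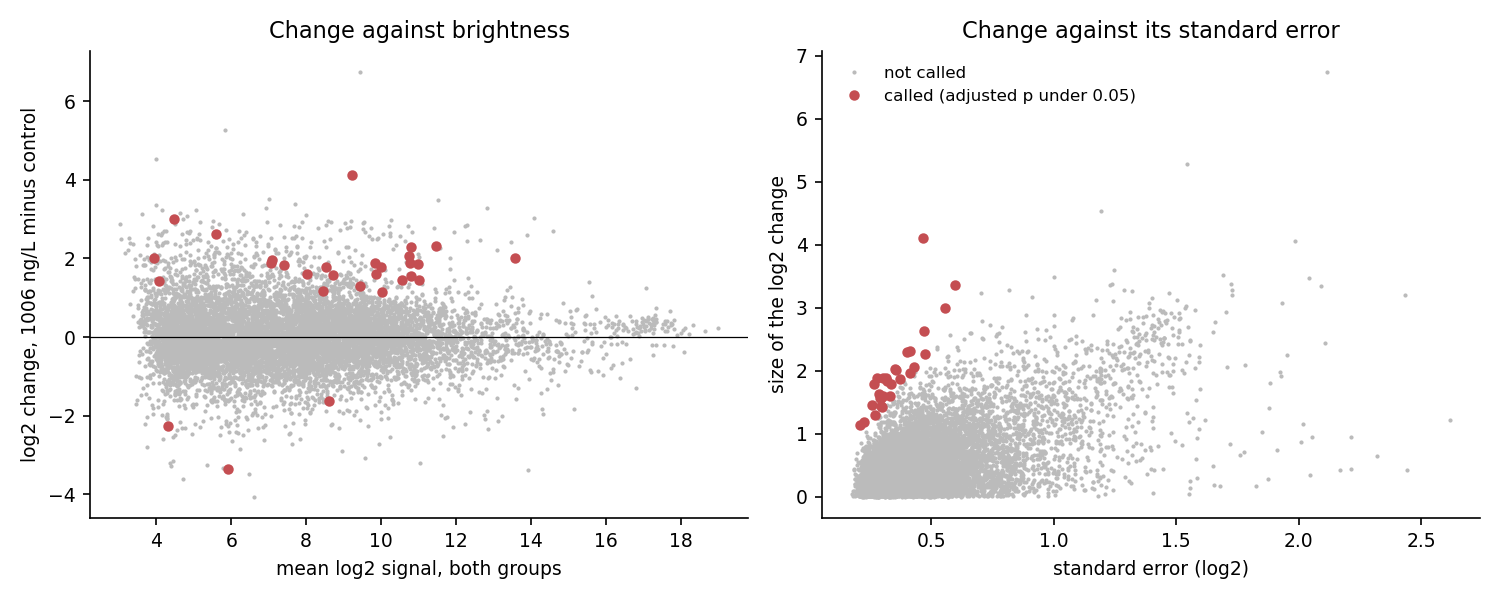
Left, log2 change at 1006 ng/L minus control (vertical axis) against the mean log2 signal over both groups (horizontal axis); right, the size of that change against its standard error (log2). Each point is 1 of the 9978 tested probes and the 29 called probes are red, with standard errors between 0.21 and 0.60.

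The largest differences of means were mostly not called. The mean changed by more than 3 on the log2 scale at 30 probes, 18 higher and 12 lower, and 2 of these were called. Groups did not overlap at 4 of the 30, and their standard errors reached 2.44 with a median of 1.39. Over all tested probes 0.291% were called and groups did not overlap at 4.06%. Both shares were higher among the 30, since the size of a change enters both measures. The largest difference of all was in a probe with control signals of 7.85, 4.38, 6.74, 6.87 and 4.49 and signals of 9.14, 7.43, 15.96, 15.12 and 16.38 at 1006 ng/L. Replicates 44, 45 and 46 were very high while replicate 42 lay inside the control range. The mean difference of 6.74 had an SE of 2.11 and a limma adjusted p of 0.197. One array at 287 ng/L, replicate 36, also read 15.89 at this probe, while the other 4 at that dose read 2.43 to 5.41.

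Just inside the threshold, the last called probe had an adjusted p of 0.0489 and rose by 1.42 (SE 0.30). The first probe outside it had an adjusted p of 0.0520. A further 43 probes, 34 higher and 9 lower, had an adjusted p under 0.1. Without adjustment, 1370 probes (13.7%) had p under 0.05 in limma, 683 higher and 687 lower. Scaling each array to its 75th percentile shifted the median change of all probes from −0.03 to −0.19 and that split to 479 higher and 849 lower.

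At the lower doses the called probes mostly stood between the controls and the highest dose, and none went past the mean of the highest dose. These comparisons share the control arrays, and the probes were chosen at 1006 ng/L, so the values are a description. The change against control had the sign seen at 1006 ng/L in 27 of the 29 probes at 29 ng/L and in all 29 at 287 ng/L. In that direction the median change was 0.72 at 29 ng/L, which compares with 1.87 at the highest dose, and at 287 ng/L it was 0.97. The values at 29 ng/L include replicate 26, which had the lowest mean correlation with its own group of all arrays, 0.823. At UF_Ppr_AF_106468 it read 4.05 and the other 4 arrays of that dose 6.32 to 6.88. The 29 ng/L values were not redone without it. UF_Ppr_AF_112748 averaged 9.43 ± 0.45 at 29 ng/L and 9.67 ± 1.25 at 287 ng/L (SD, n = 5 each), between 7.17 in the controls and 11.28 at the highest dose. At 287 ng/L replicate 27 read 11.75 and the other 4 arrays 8.51 to 9.74. That array's title number continues those of the 29 ng/L arrays, although its title prefix and dose label are those of 287 ng/L. Without it the 287 ng/L mean was 9.15 ± 0.52 (SD, n = 4), below that at 29 ng/L instead of above it, and the median change of the 29 probes at 287 ng/L was 1.05, with the sign unchanged in 29. UF_Ppr_AF_112570 averaged 5.53 ± 0.91 and 4.97 ± 0.97 (SD, n = 5 each), not far from 5.96 at the highest dose. UF_Ppr_AF_106468 averaged 6.09 ± 1.16 and 6.32 ± 0.80 (SD, n = 5 each), nearer to the controls at 7.60 than to 4.25. UF_Ppr_AF_101157 averaged 5.87 ± 0.87 at 29 ng/L, 0.43 above its control mean, and 4.39 ± 1.03 at 287 ng/L (SD, n = 5 each).

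A few called probes departed from that order. The third largest rise, of 2.63 (SE 0.47, limma adjusted p = 0.0147), read 4.20, 3.81, 4.83, 3.97 and 4.56 in the controls and 7.08, 6.94, 7.97, 5.09 and 7.44 at 1006 ng/L. Its mean was 3.97 ± 0.66 at 29 ng/L, and that at 287 ng/L was 4.55 ± 0.73 (SD, n = 5 each). Both lower doses lay within the spread of the control level of 4.27 ± 0.42. Another called rise, of 2.02 (SE 0.35, limma adjusted p = 0.0147), averaged 2.92 ± 0.59 in the controls and 4.94 ± 0.54 at the highest dose. Between them it averaged 4.56 ± 0.28 at 29 ng/L, while the arrays at 287 ng/L gave 2.95 ± 0.68 (SD, n = 5 each). Its mean at 287 ng/L was that of the controls to within the spread, and 2 of 5 arrays in each of these groups had it well above background. Both of these rises were in probes that met the filter through the group at 1006 ng/L alone.

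**Figure D4:**
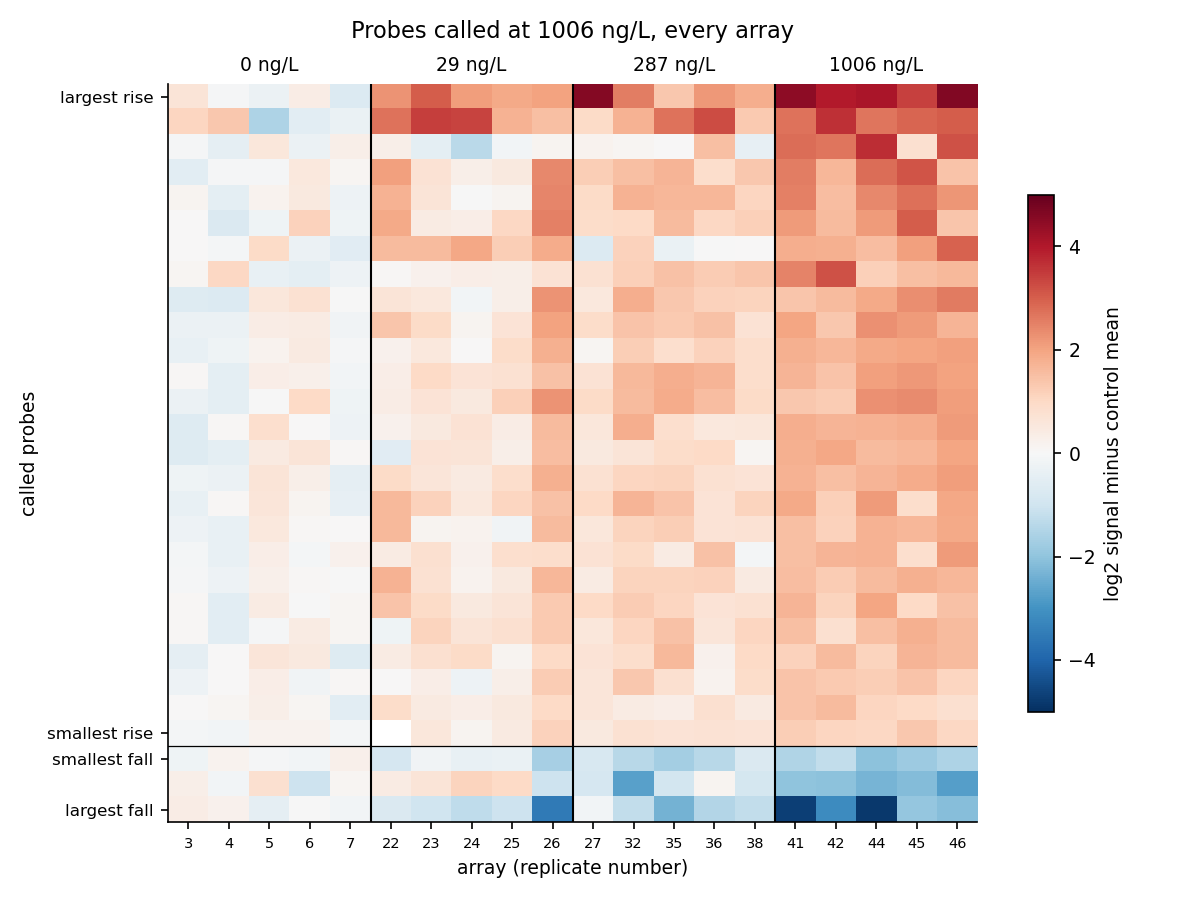
Log2 signal minus the control mean (colour) of the 29 called probes (vertical axis, 26 rises above the line and 3 falls below it) on each of the 20 arrays (horizontal axis, replicate number, by ng/L). The arrays at 1006 ng/L show the strongest colours, array 26 at 29 ng/L is nearest to them among the lower doses, and the white cell is an outlier spot set to missing.

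Set directly against the lower doses, the highest dose had no probe past the threshold, a count that moved with the setting. The contrast of 1006 with 29 ng/L called 0 probes in limma and 0 in the ordinary linear model, against 899 with unadjusted p under 0.05, and had a lowest limma adjusted p of 0.0513. Without replicate 26 at 29 ng/L that contrast called 18 probes, array weights gave 31, and quantile normalisation or the authors' deposited table gave 1. UF_Ppr_AF_112748 read 9.07 to 10.21 at 29 ng/L and 10.57 to 11.79 at 1006 ng/L, with no overlap, and its difference of 1.85 had a limma adjusted p of 0.299. The lowest adjusted p belonged to the third largest rise, which was 2.94 higher at 1006 than at 29 ng/L. That probe met the filter through the group at 1006 ng/L alone, so its adjusted p is weaker evidence. The contrast of 1006 with 287 ng/L also called 0 in both models, against 477 with unadjusted p under 0.05, and had a lowest limma adjusted p of 0.180. Across the 29 called probes the median difference in the direction of their change was 0.94 from 29 to 1006 ng/L and 0.78 from 287 to 1006 ng/L. Against control, 29 ng/L and 287 ng/L each called 0 of the same 9978 probes in both models, while 569 and 549 had an unadjusted p under 0.05. The filter behind the 9978 used the control and 1006 ng/L arrays alone, and a filter over any of the 4 groups kept 10867. The 2 lower doses were not tested against control on that wider set. Where no probe differs, a share of about 0.05 of the 9978 tests has an unadjusted p under 0.05. The counts of 477, 569 and 549 are close to that share, and the 899 are above it. Both the 899 and the 477 moved with single arrays. Dropping array 22 of the 29 ng/L group took the 899 to 627, and dropping array 26 took it to 1850. The 477 became 316 when array 45 at 1006 ng/L was dropped and 771 when array 46 was. The distance of the 899 from that share is therefore poorly fixed, and whether it is an excess was not tested. A call at the highest dose and none at a lower one does not show that the doses differ.

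Some probes passed from below to above background. Among all 15208 fish probes, 28 (0.184%) were well above background on none of the control arrays and on at least 4 arrays at 1006 ng/L, 6 of them on all 5. The reverse held for 1 probe. With the looser rule of at most 1 array in the lower group, 117 probes appeared and 16 disappeared. Against the same controls and by the stricter rule, the exposure to 29 ng/L gave 4 gains and 1 loss, while 47 gains and 0 losses were counted at 287 ng/L. By the looser rule there were 28 gains and 6 losses at 29 ng/L and 246 gains and 3 losses at 287 ng/L. Mean numbers of probes above background on the arrays moved in the same order as these gains, from 10132 in the controls to 10318 for 29 ng/L, 10689 for 1006 ng/L and 11391 for 287 ng/L, and their part in the gains was not tested. Set against the lowest signal that was well above background on each control array, the 28 probes were at least 1.04-fold to 6.61-fold higher at 1006 ng/L, with a median bound of 2.17-fold. These probes were chosen for their difference in detection, so no test of them is given. One of those above background on all 5 exposed arrays averaged 2.55 in the controls and 5.78 at 1006 ng/L, was at least 4.45-fold higher, and was above background on all 5 arrays at 287 ng/L and on 3 at 29 ng/L.

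**Figure D5:**
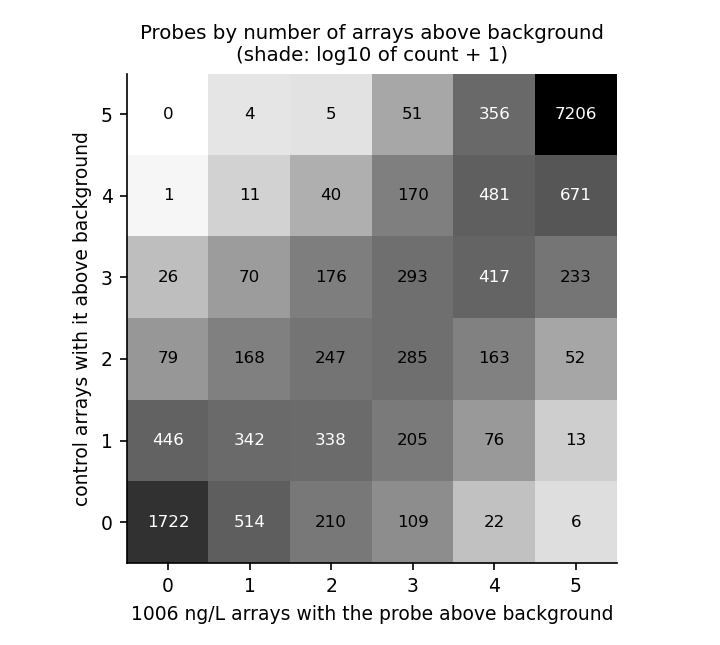
Number of fish probes by how many of the 5 control arrays (vertical axis) and how many of the 5 arrays at 1006 ng/L (horizontal axis) had the probe well above background, with darker cells holding more probes on a log10 scale. The corner cells hold 7206 probes above background on all 10 arrays and 1722 on none, and 28 probes lie in the right 2 cells of the bottom line.

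The probe names allowed a further comparison within the called set. Names of 27 of the 29 began with the letters of the assembled transcripts (0.320% of the 8450 such probes tested), and the other 2 began with gi (0.134% of 1494). For 7 called probes the array held 10 more probes whose names share the assembly number, and 5 of these were tested. None of the 5 was called, and 3 changed in the direction of the called probe. Over all tested probes 0.291% were called, so no call among 5 is near that share. The 5 are also too few to read a shared direction from. The relative of UF_Ppr_AF_101157 was the nearest to a call, with means of 5.82 in the controls and 4.10 at 1006 ng/L, a log2 change of −1.72 (SE 0.41, limma adjusted p = 0.0885). The tested relative of UF_Ppr_AF_106468 had a change of −0.06 (SE 0.56, limma adjusted p = 0.967). An untested probe with the same assembly name plus a suffix averaged 2.30 in the controls and 2.45 at 1006 ng/L. It was well above background on 0 control arrays and 1 exposed array. A further untested relative averaged 1.63 and 1.57, above background on 0 arrays of either group. Whether probes with a shared number measure the same transcript is not given in the sources used here.

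Within the groups the called probes tended to vary together, each taken in the direction of its change at the highest dose. Each group's mean was removed, and each probe's sign was set so that its change at the highest dose counted as positive. With these signs, the 406 pairs among the 29 called probes had a median correlation over the 20 arrays of 0.35. The values ran from −0.57 to 0.91, and 28.8% of pairs were above 0.5. The comparison used 994 other tested probes, taken at regular steps through the table, with signs set in the same way. Their median was 0.08 and 10.1% of pairs were above 0.5. These points share arrays and normalisation, and the called probes are brighter, so the values are a description. At most of the called probes, replicate 26 at 29 ng/L lay off its group's mean in the direction of the highest dose. The correlations were not redone without that array, and its part in them was not tested.

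The likeness of replicate arrays was also compared. The mean correlation of an array with the others of its group was 0.904 ± 0.016 in the controls and 0.879 ± 0.022 at 1006 ng/L (SD, n = 5 each). A two-sided permutation test gave p = 0.0635, adjusted over 4 array measures 0.254. Arrays of a group share pairs, and the correlations were not recomputed for each split. The test is therefore not exact and cannot decide whether the groups differ. The SD between replicates was larger at 1006 ng/L than in the controls at 60.5% of tested probes, with medians of 0.65 and 0.55. Among the 29 called probes the median SD was 0.38 in the exposed group and 0.39 in the controls. The test that chose these probes favours a small spread in the same arrays, so their SDs cannot be set against those of all probes.

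Slides also split the comparison. Control replicates 3 and 7 shared a slide with replicates 41 and 45, control replicates 4 and 5 with replicates 42 and 44, and control replicate 6 with replicate 46. The median change of the 29 called probes in their own direction was 2.09 and 1.78 within the 2 larger slides and 1.72 within the smallest. The 29 were called on these same arrays and their groups did not overlap. The sign within each slide was therefore fixed in advance, and the slide values are a description. UF_Ppr_AF_112570 differed by 2.44, 3.26 and 3.56 within these slides, in the same order. UF_Ppr_AF_106468 changed by −3.46, −3.87 and −2.13 and UF_Ppr_AF_101157 by −2.26, −2.52 and −1.72. Slide as a fixed block in the fit called 22 probes in limma and 6 in the ordinary linear model, and 1 in limma when the filter ran over any of the 4 groups. Either larger slide alone, with 2 arrays a group, called 0 in limma and 0 in the ordinary linear model (1440 and 529 of 9978 at an unadjusted p under 0.05).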

How the data were processed

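The members and lists were chosen with earlier results of these data known. Each array was deposited as scanner output with intensity values on a linear scale, made with Agilent Feature Extraction 10.7.1.1 per the file headers; the processed intensity is background-subtracted and not scaled between arrays. RNA was taken with Trizol and labelled with Cy3, per the labels' protocols. The authors also deposited a log2 table of all 20 arrays, which followed each array's scanner log2 signals (r at least 0.992), with the same direction. Its column medians over the 10 arrays ran from 5.39 to 5.51, so the columns were scaled alike and not centred on 0, and the labels say only that it was loess normalised. It was used as an alternative, and 714 of its values were missing, all on 287 ng/L replicate 36. Its 1 column matching no sample was not used.

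From each array, 536 of 15744 spots were control spots and were dropped, 240 outlier spots (201 of them on 29 ng/L replicate 22) were set to missing, and 8 saturated spots were kept. Log2 processed intensity was normalised by cyclic loess over the 20 arrays (span 0.7, 3 iterations). One limma model (limma 3.58.1, R 4.3.3) had a coefficient for each of the 4 groups and 16 residual degrees of freedom. Contrasts were tested two-sided with moderated variances and Benjamini-Hochberg adjustment over the 9978 tested probes. Array measures were compared with permutation tests, exact for the measures computed on each array alone.

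The named probes are the 2 largest rises and 2 largest falls among the called probes, a rule for probes without gene names. Other probes described were chosen after their values were seen. None of the planned gene lists and cell type markers could be tested. Alternatives covered normalisation, background correction, filters, the arrays fitted, variance moderation, array weights, slide, scan session, outlier spots and leaving out each array.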

Additional observations from a re-analysis of the deposited data

Results flagged for a closer look

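Within groups of 5 arrays, a value was singled out when its gap to the nearest other array exceeded 0.71 of the group's range, Dixon's 95% critical value. Of 24 sets tested 2 were singled out, and chance alone does so in about 5% of sets. The 75th percentile of the processed signal on replicate 45 at 1006 ng/L was 684, while the group's other 4 arrays had 246 to 368. UF_Ppr_AF_106468 read 4.05 on 1 array at 29 ng/L, replicate 26, below the other 4 of that group.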

How the results depend on the processing

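The 29 calls at 1006 ng/L against control became 13 with 75th percentile scaling, 159 with array weights (111 higher and 48 lower, or 69.8% higher against 89.7%), 0 on slide 3 alone, 0 on slide 4 alone and 1 in scan session 1 alone. With alternatives added after seeing the data, they became 1 with slide as a fixed block and the filter over any of the 4 groups, and 59 (43 higher and 16 lower) without 1006 ng/L replicate 42 and 29 ng/L replicate 22. Setting the dim regions to missing gave 31. Quantile normalisation gave 41, the values of the authors' deposited table gave 43, normexp 31, no filter 20, the filter on all 10 arrays 40, a fit of the 10 arrays alone 21 and slide as a random block 23. The 21 of the fit of the 10 arrays alone were 17 higher and 4 lower, and only 14 of them were among the 29. In that fit UF_Ppr_AF_112748 and UF_Ppr_AF_101157 passed. There UF_Ppr_AF_112570 (limma adjusted p = 0.0559) and UF_Ppr_AF_106468 (limma adjusted p = 0.0528) did not. Leaving out 1 array gave 3 to 74. Against 29 ng/L, 0 calls became 1 with quantile normalisation, with the authors' table, on slide 3 alone, with dim regions missing and without both arrays, and 31 with array weights; leaving out 1 array gave 0 to 18, the highest without 29 ng/L replicate 26. Against 287 ng/L, array weights gave 1 and leaving out 1 array 0 to 2. The cause of these shifts was not tested. UF_Ppr_AF_112748 passed in 40 of 42 settings, failing on slides 3 and 4 alone, UF_Ppr_AF_112570 in 28 of 41, UF_Ppr_AF_106468 in 30 of 41 and UF_Ppr_AF_101157 in 15 of 41, and none changed sign. Because the groups did not overlap at these probes, fitting fewer arrays of the same values could not change a sign. Leaving out 1 array, the difference at 1006 ng/L minus control was 205 to 973 for probes above background and 17.2 to 127 for the 75th percentile. It was −0.0316 to −0.0173 for the mean correlation (permutation p = 0.0397 without control replicate 6) and 0.0629 to 0.137 for the median deviation from the own group. The mean correlation and median deviation were not recomputed without the array left out, so their p-values are not exact. Scan session 2 alone was not run, since its arrays leave no residual degrees of freedom. No paired analysis was possible because the groups share no replicate numbers, so slide was the only block that matched arrays of the groups besides scan session. Signal over background limits the dim probes, since 6 of the 29 called probes were not above background on all 10 arrays. These 6 met the filter only through the group with the higher signal.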
